A study of Mus musculus with 8 samples.

Results

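The insulin-like growth factor (IGF) axis was described at the RNA level in cardiac fibroblasts with and without *Lmna*, the gene for lamins A and C of the nuclear lamina. The genes were chosen by symbol from the deposited count tables. They comprise the ligands *Igf1* and *Igf2*, the receptors *Igf1r* and *Igf2r*, and the binding protein genes *Igfbp2*, *Igfbp3*, *Igfbp4*, *Igfbp5*, *Igfbp6* and *Igfbp7*. All 10 were found among the 18957 genes listed in 8 libraries. *Igfbp1* was not analysed here.

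Each library came from PDGFRA+ cells sorted by flow cytometry from mouse ventricular tissue at 3 to 4 weeks of age. There were 4 libraries of WT mice and 4 of *Pdgfra-Cre:LmnaF/F* mice, both of the strain C57BL/6 (mixed). The second genotype carries a *Pdgfra-Cre* BAC transgene and 2 *Lmna* alleles with a floxed exon, which Cre removes. The WT mice carry neither, so no library with Cre alone was compared and an effect of Cre cannot be told apart from one of the deletion. *Pdgfra* is transcribed in most cardiac fibroblasts, and the study describes deletion in a part of the cardiac myocytes as well. The comparison asks how loss of *Lmna* in fibroblasts relates to their transcripts, and it is read here for one growth factor axis.

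IGF1 and IGF2 are small secreted growth factors that act on the tyrosine kinase receptor IGF1R, which signals through insulin receptor substrates to the PI3K-AKT and RAS-MAPK arms. IGF2R, the cation-independent mannose-6-phosphate receptor, takes IGF2 to lysosomes instead of signaling. Most extracellular IGF is held by IGF-binding proteins, which lengthen its life, keep it from the receptor or place it in the matrix until a protease releases it. In the heart, fibroblasts and other stromal cells are a local source of IGF1, and several binding proteins are secreted by fibroblasts.

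Total counts ranged from 2080555 in WT library 2 to 12502949 in *Pdgfra-Cre:LmnaF/F* library 4. *Lmna* CPM, which are counts scaled to library size with TMM factors, were 331, 274, 483 and 374 in WT libraries 1 to 4 and 126, 97.4, 130.0 and 90.4 in *Pdgfra-Cre:LmnaF/F* libraries 1 to 4. *Lmna* fell, by a log2 fold change of -1.72 (SE 0.22, edgeR quasi-likelihood test, adjusted p = 0.00492). Reads over the deleted exon were not separated in gene counts. The fibroblast markers summed to 48869 to 56433 CPM in WT and 42217 to 58684 CPM in *Pdgfra-Cre:LmnaF/F* libraries, and the sorting marker *Pdgfra* was at 1275 CPM or more in every library. Of the 7 cardiomyocyte markers, the sum was 3268 CPM in *Pdgfra-Cre:LmnaF/F* library 4 and 220.1 to 666 CPM in the other libraries. The same library was highest for leukocyte markers, at 440.1 CPM against 43.8 to 183 CPM elsewhere. The sums of endothelial, pericyte and smooth muscle, mesothelial, Schwann and adipocyte markers overlapped between genotypes, and the highest of them was 369 CPM. Transcripts of 4 Y-linked genes summed to 143 to 273 CPM in WT libraries 1, 2 and 4 and *Pdgfra-Cre:LmnaF/F* library 4 and to at most 1.96 CPM in the other 4, so sex, which the labels do not give, is partly confounded with genotype in every comparison here.

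Among the binding proteins, *Igfbp7* dominated the transcripts of WT fibroblasts. Levels were compared between genes in TPM, which are counts per length of annotated exon, scaled to the library. In WT libraries *Igfbp7* stood at 6519 ± 873 TPM (SD, n = 4) and ranked 7th of 18918 genes with a length. It was followed by *Igfbp4* at 1440.5 ± 335 TPM, *Igfbp6* at 884 ± 289 TPM, *Igfbp3* at 377 ± 163 TPM and *Igf2r* at 339 ± 35.1 TPM. Below these stood *Igf1* at 131 ± 5.31 TPM, *Igfbp5* at 88.1 ± 35.1 TPM and *Igf1r* at 27.2 ± 7.44 TPM. The ranges over the 4 WT libraries were separate between *Igfbp7* and *Igfbp4*, between *Igf2r* and *Igf1* and between *Igfbp5* and *Igf1r*. They overlapped for the neighbours *Igfbp4* and *Igfbp6*, *Igfbp6* and *Igfbp3*, *Igfbp3* and *Igf2r*, and *Igf1* and *Igfbp5*. In each WT library *Igfbp6* nevertheless stood above *Igfbp3*. In *Pdgfra-Cre:LmnaF/F* libraries the mean order of the 8 genes above differed in one place, with *Igfbp3* second at 2368 ± 2222 TPM behind *Igfbp7* at 5657 ± 574 TPM. *Igfbp3* stood above *Igfbp4* in only 2 of these 4 libraries.

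**Figure D1:**
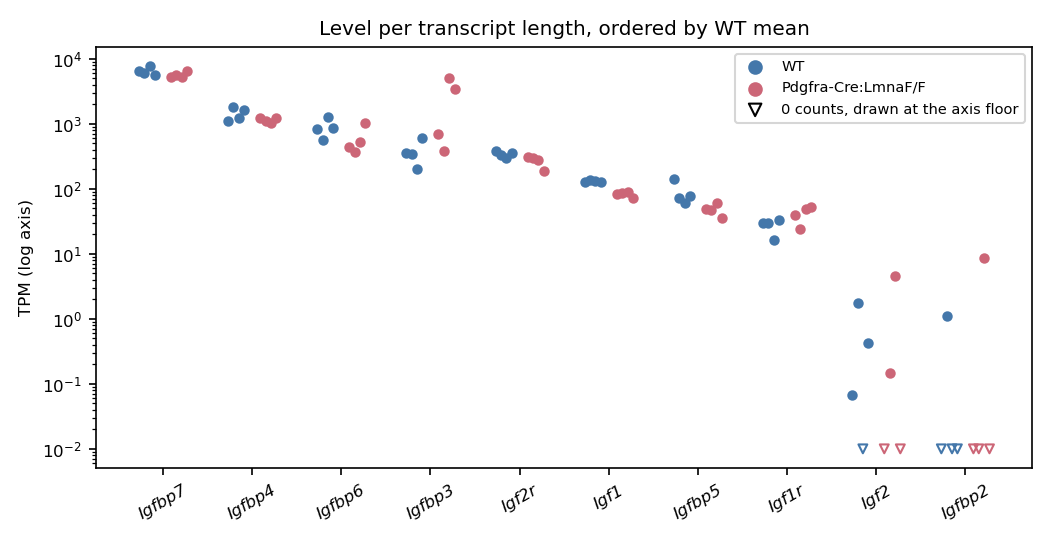
Level of each IGF axis gene in TPM (log scale) in WT and *Pdgfra-Cre:LmnaF/F* libraries, 1 point per library. *Igfbp7* is the highest gene in both genotypes, and *Igfbp3* spreads from 381 to 5017 TPM among the *Pdgfra-Cre:LmnaF/F* libraries.

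None of the IGF axis genes passed the edgeR quasi-likelihood test at an adjusted p under 0.05, with 8 of the 10 tested. Over all 13036 genes tested, 0.407% passed, 22 higher and 31 lower in *Pdgfra-Cre:LmnaF/F* libraries. At an unadjusted p under 0.05 there were 4 of 8, *Igfbp3* and *Igf1r* with higher and *Igf1* and *Igfbp5* with lower values, against 11.9% of all genes tested. DESeq2, which called 2.32% of all genes, called 3 of the 8, namely *Igf1*, *Igfbp3* and *Igfbp5*, and the same 3 with an RUVr factor, where 3.5% of all genes were called. Limma-voom called 0, against 0.967% of all genes. Without the filter on low counts edgeR called *Igfbp3* and *Igfbp5*, against 1.45% of all genes. The CPM of the 2 genotypes did not overlap for *Igf1*, *Igf2r* and *Igfbp5*, each lower in *Pdgfra-Cre:LmnaF/F* libraries. No overlap was seen for 8.03% of all genes tested, 3.97% lower and 4.06% higher. The median log2 fold change was -0.33 over the 8 genes and 0.02 over all genes tested. In bulk RNA of sorted cells, fewer cells of a type and less RNA per cell cannot be told apart.

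**Figure D2:**
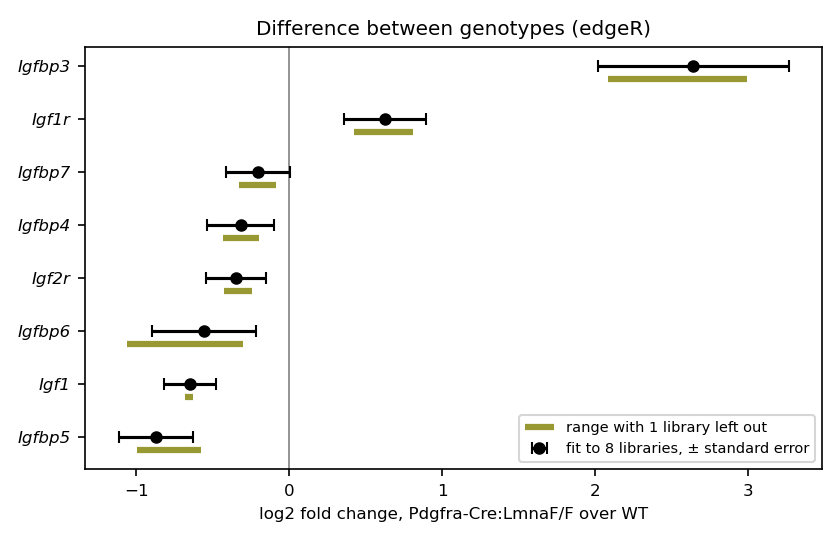
Log2 fold change of the tested IGF axis genes in *Pdgfra-Cre:LmnaF/F* over WT libraries, with the standard error from the edgeR quasi-likelihood test. *Igfbp3* has the largest estimate at 2.64, and 6 of the 8 estimates lie below 0.

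*Igf1* (chr10:87858265-87937042 on the plus strand of mm10, GENCODE M21), the ligand made in these fibroblasts, had the most even values of the axis. It was at 302, 338, 340.3 and 316 CPM in WT libraries 1 to 4 and at 201, 218, 208 and 200.0 CPM in *Pdgfra-Cre:LmnaF/F* libraries 1 to 4. The lowest WT library stood above the highest *Pdgfra-Cre:LmnaF/F* library, and the spread within each genotype was small, with a coefficient of variation of 5.64% and 4.13%. The means were 324 ± 18.3 CPM and 207 ± 8.53 CPM (SD, n = 4 each), a log2 fold change of -0.65 (SE 0.17), or 36.2% lower. The unadjusted p was 0.00193 and the adjusted p was 0.134 in the edgeR quasi-likelihood test. The adjusted p was 0.00474 with DESeq2 and 0.0608 with limma-voom. Leaving out each library in turn moved the estimate between -0.68 and -0.63. With Y-linked expression as covariate, a choice made after the values were seen, it was -0.68 (adjusted p = 0.109, edgeR quasi-likelihood test). An antisense gene, *Igf1os*, overlaps *Igf1* on the other strand, and the strand setting of the counting is not given in the sources used here.

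Marker sums of other kinds were also separate between the genotypes. The 7 markers of adventitial-type fibroblasts, among them *Pi16* and *Dpp4*, summed to 3064 to 4453 CPM in WT and 1357 to 2868 CPM in *Pdgfra-Cre:LmnaF/F* libraries. All 7 had a lower estimate and 4 had an unadjusted p under 0.05, against 11.9% of all genes tested. None of the 7 passed the edgeR test, where 0.407% of all genes did. Only 1 of the 7, *Pi16*, did not overlap between genotypes, against 8.03% of all genes tested. It was at 1107 to 1369 CPM in WT and 96.7 to 702 CPM in *Pdgfra-Cre:LmnaF/F* libraries. The others overlapped, *Dpp4* among them, so the sums separate but most of the single markers do not. The 20 genes of the dissociation response, which are induced while tissue is digested and sorted, summed to 2528 to 5997 CPM in WT and 8329 to 13461 CPM in *Pdgfra-Cre:LmnaF/F* libraries, and 3 of them passed as higher, against 0.169% of all genes. Of the 20, 14 had an unadjusted p under 0.05 and 12 did not overlap, all higher, against 11.9% and 8.03% of all genes. Their part in the lower *Igf1*, *Igf2r* and *Igfbp5* values was not tested.

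*Igf2*, a fetal growth factor expressed from the paternal allele, was close to absent in 7 of the 8 libraries. Its raw counts were 1, 5, 0 and 6 in WT libraries and 0, 2, 53 and 0 in *Pdgfra-Cre:LmnaF/F* libraries. *Igfbp2*, a binding protein gene of fetal tissues and liver, had counts of 0, 1, 0 and 0 in WT and 0, 0, 32 and 0 in *Pdgfra-Cre:LmnaF/F* libraries. Both genes therefore had more than 6 counts in *Pdgfra-Cre:LmnaF/F* library 3 only, and neither passed the filter on low counts. They are 2 of 172 genes with at least 20 counts in that library and at most 10 in any other. Such genes numbered 2 to 310 in the single libraries. No fold change is given for either gene. *Igf2* shares its locus with *Gm49394*, *Mir483* and the antisense *Igf2os*, and the reads of these could not be separated.

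**Figure D3:**
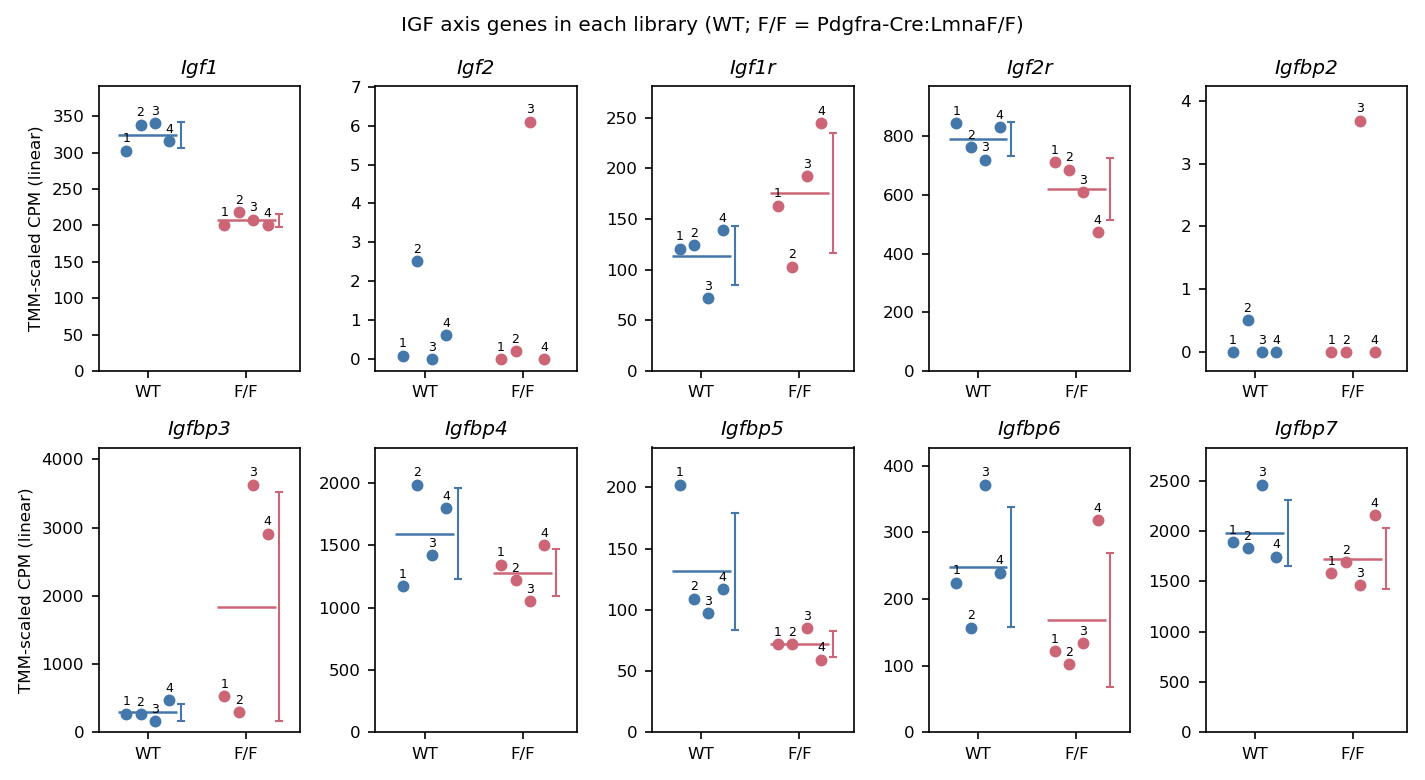
TMM-scaled CPM of the 10 IGF axis genes in each library, numbered by replicate, with the mean and SD for the 8 tested genes. *Igf1* separates the genotypes with little spread, while *Igfbp3* is at 3629 and 2909 CPM in *Pdgfra-Cre:LmnaF/F* libraries 3 and 4 and at most 532 CPM in the other 6 libraries.

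The receptors gave estimates of opposite sign. *Igf1r*, the signaling receptor, was at 121, 124, 71.7 and 139 CPM in WT libraries and at 163, 103, 192 and 244 CPM in *Pdgfra-Cre:LmnaF/F* libraries. Library 2 of the latter lay inside the WT range and the other 3 were above it. The log2 fold change was 0.63 (SE 0.27, unadjusted p = 0.0344, adjusted p = 0.374, edgeR quasi-likelihood test), and 0.22 (adjusted p = 0.877) without *Pdgfra-Cre:LmnaF/F* libraries 3 and 4. With Y-linked expression as covariate it was 0.96 (adjusted p = 0.0710, edgeR). The ratio of *Igf1* to *Igf1r* TPM was 3.85 to 8.04 in WT libraries and 1.39 to 3.59 in *Pdgfra-Cre:LmnaF/F* libraries, without overlap, and no test was made of this ratio. The gap was smaller than the SD of either group, 1.93 in WT and 0.957 in *Pdgfra-Cre:LmnaF/F* libraries. *Igf1* alone already separates the genotypes, so the ratio is not a separate observation.

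*Igf2r*, the clearance receptor, was at 844, 763, 719.8 and 830.1 CPM in WT libraries and 711, 686, 609 and 474 CPM in *Pdgfra-Cre:LmnaF/F* libraries. The groups did not overlap, but the gap between WT library 3 and *Pdgfra-Cre:LmnaF/F* library 1 was smaller than the SD of either group. The log2 fold change was -0.35 (SE 0.20, adjusted p = 0.527, edgeR quasi-likelihood test), and -0.18 (adjusted p = 0.851) without *Pdgfra-Cre:LmnaF/F* libraries 3 and 4. *Pdgfra-Cre:LmnaF/F* library 4, the lowest, was also the one with the highest cardiomyocyte and leukocyte marker sums. The antisense gene *Airn* overlaps *Igf2r*.

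*Igfbp3* (chr11:7206086-7213923, minus strand) encodes the main carrier of IGF in blood and had the largest estimate of the axis, which rested on a pair of libraries. It was at 273, 266, 169 and 471 CPM in WT libraries 1 to 4 and at 532, 299, 3629 and 2909 CPM in *Pdgfra-Cre:LmnaF/F* libraries 1 to 4. Libraries 3 and 4 were above every WT library by a wide margin, library 1 was just above the WT range and library 2 was inside it. The highest of the *Pdgfra-Cre:LmnaF/F* values was 12.1 times the lowest, against 2.79 times in WT. The means were 295 ± 127 CPM and 1842 ± 1676 CPM (SD, n = 4 each), a log2 fold change of 2.64 (SE 0.62, unadjusted p = 0.00073, adjusted p = 0.0969, edgeR quasi-likelihood test).

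The *Igfbp3* call depended on the libraries and the test. The estimate was 0.49 (adjusted p = 0.708) without *Pdgfra-Cre:LmnaF/F* libraries 3 and 4, a choice made after the values were seen. Without library 1 it was 2.94 (adjusted p = 0.0473, with 0.384% of all genes called) and without library 2 it was 2.99 (adjusted p = 0.0370, with 0.192% called), all with the edgeR quasi-likelihood test. With Y-linked expression as covariate, also chosen after the values were seen, it was 3.09 (adjusted p = 0.0300, edgeR, with 0.913% called). The estimate was 2.65 with DESeq2 (adjusted p = 0.0473) and 1.65 with limma-voom and sample quality weights (adjusted p = 0.139). The libraries that carry it differ in other respects. Library 3 had the highest dissociation response sum, 13461 CPM, and the lowest adventitial-type sum, with 1.96 CPM of Y-linked transcripts. Library 4 had the highest cardiomyocyte and leukocyte sums and Y-linked transcripts. The part of these in the *Igfbp3* values was not tested.

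The promoter of *Igfbp3* is shown with that of *Igfbp5*, the pair of binding protein genes with the lowest p in opposite directions. The sequences are from RefSeq on GRCm38.p6, the build also named mm10, and lie on the minus strand, at chr11:7213924-7214023 for *Igfbp3* and chr1:72874885-72874965 for *Igfbp5*. The *Igfbp3* stretch runs up to the RefSeq start, whereas the *Igfbp5* stretch ends 19 bases before its RefSeq start, since those bases lie in a GENCODE exon and are not shown. Capitals mark TATATA, which begins 30 bases before the RefSeq start of *Igfbp3*, and TATTTAA, which begins 51 bases before that of *Igfbp5*, counting the 19 bases not shown.
Igfbp3: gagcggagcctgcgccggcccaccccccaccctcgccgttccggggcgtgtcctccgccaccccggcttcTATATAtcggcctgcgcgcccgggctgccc
Igfbp5: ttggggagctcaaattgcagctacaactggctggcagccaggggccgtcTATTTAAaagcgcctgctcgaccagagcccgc

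Over the 250 bases before the start, searched on both strands, TATATA was in 5.25% and TATTTAA in 4.18% of 32851 mouse promoter windows. TATAAA, found in 12.4% of windows, was in those of *Igfbp4* and *Igfbp6*. GGGCGG, found in 32.7%, was in windows of *Igfbp2*, *Igfbp7*, *Igf1r*, *Igf2* and *Igf2r*, and CCAAT, found in 33.8%, in those of *Igf1*, *Igf2* and *Igfbp6*. Matches of the 3 TATA-like motifs may overlap one another. The G+C content was 73.2% for *Igfbp3* and 58.8% for *Igfbp5*, against a median of 52.4% over all windows. These matches describe the letters in the window and are not binding sites.

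*Igfbp5* (chr1:72857932-72874884, minus strand), whose protein binds extracellular matrix, had lower values in every *Pdgfra-Cre:LmnaF/F* library. It was at 202, 109, 97.5 and 117 CPM in WT libraries and at 72.0, 72.0, 85.0 and 59.5 CPM in *Pdgfra-Cre:LmnaF/F* libraries. WT library 1 stood far above the other 3, and even the lowest WT value was above all 4 of the other genotype. The means were 132 ± 47.9 CPM and 72.1 ± 10.4 CPM (SD, n = 4 each), a log2 fold change of -0.87 (SE 0.24, unadjusted p = 0.00274, adjusted p = 0.151, edgeR quasi-likelihood test). Without WT library 1 it was -0.58 (adjusted p = 0.414), and with DESeq2 it was -0.87 (adjusted p = 0.0386). *Igfbp5* lies tail to tail with *Igfbp2* on chromosome 1, 5457 bp apart (GENCODE M21), and *Igfbp2* had at most 1 count outside *Pdgfra-Cre:LmnaF/F* library 3.

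*Igfbp4*, an inhibitory binding protein that the protease PAPPA cleaves, was at 1171, 1988, 1422 and 1799 CPM in WT libraries and 1347, 1220.4, 1053 and 1500.4 CPM in *Pdgfra-Cre:LmnaF/F* libraries. The groups overlapped, and the log2 fold change was -0.32 (SE 0.22, adjusted p = 0.631, edgeR quasi-likelihood test), or -0.20 without WT library 2. *Igfbp6*, whose protein prefers IGF2, was at 225, 157, 372 and 239.5 CPM in WT libraries and 122, 102, 133 and 319 CPM in *Pdgfra-Cre:LmnaF/F* libraries. In the latter, 3 libraries were below every WT library and library 4 was above 3 of them. The log2 fold change was -0.56 (SE 0.34, adjusted p = 0.575), all values here being from the edgeR quasi-likelihood test. Without *Pdgfra-Cre:LmnaF/F* library 4 it was -1.06 (adjusted p = 0.101), and without WT library 3 it was -0.30 (adjusted p = 0.826).

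*Igfbp7*, which binds IGF weakly and also binds insulin, was at 1891, 1829, 2461 and 1744 CPM in WT libraries and 1581, 1692, 1466 and 2155 CPM in *Pdgfra-Cre:LmnaF/F* libraries. The groups overlapped, with a log2 fold change of -0.20 (SE 0.21, adjusted p = 0.791, edgeR quasi-likelihood test). It was -0.08 without WT library 3, -0.13 without *Pdgfra-Cre:LmnaF/F* library 3 and -0.33 without *Pdgfra-Cre:LmnaF/F* library 4. *Polr2b*, which is also listed in the counts, overlaps it on the opposite strand.

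Summed over the 6 binding protein genes, CPM were 4250.4 ± 335 in WT and 5088 ± 1829 in *Pdgfra-Cre:LmnaF/F* libraries (SD, n = 4 each). Without *Igfbp3* the sums were 3956 ± 363 and 3246 ± 552, and the ranges overlapped. The share of summed *Igfbp* TPM from *Igfbp3* was 4.05%, 3.85%, 1.95% and 6.74% in WT libraries and 8.92%, 5.10%, 42.2% and 27.8% in *Pdgfra-Cre:LmnaF/F* libraries. In the last of these, *Igfbp7* made up 53.2%, and in library 3 it made up 44.1%, against 64.5% to 73.7% in WT. In library 3 *Igfbp3* therefore came close to *Igfbp7*. In libraries 1 and 2 *Igfbp7* made up 68.7% and 74.6%.

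**Figure D4:**
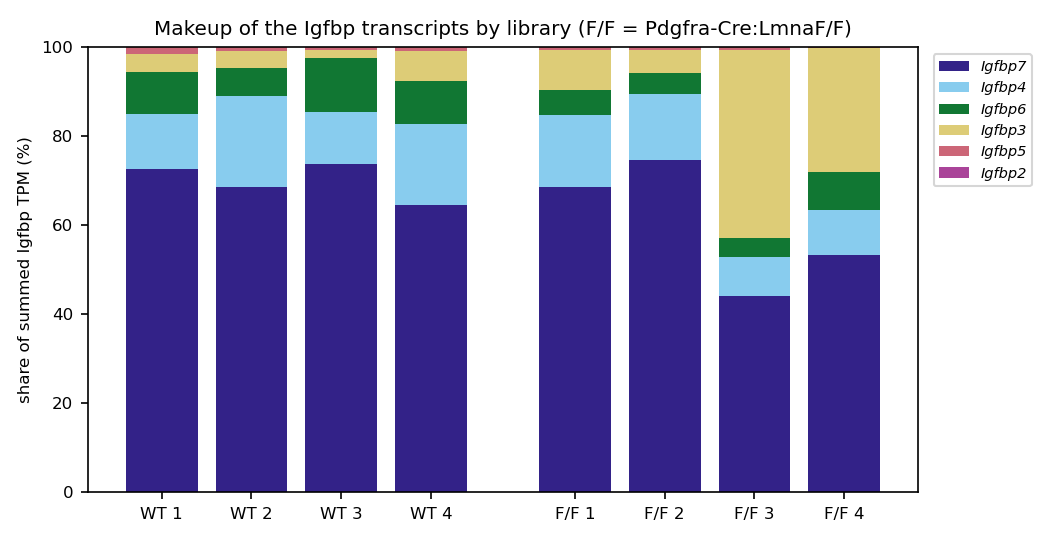
Share of summed *Igfbp* TPM (percent) taken by each binding protein gene in each library, as stacked bars. *Igfbp3* takes 42.2% and 27.8% in *Pdgfra-Cre:LmnaF/F* libraries 3 and 4 and at most 8.92% in the other libraries.

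Genes around the axis were read from lists of release and carrier factors, IGFBP-related genes, receptor adaptors, both signaling arms, FOXO factors and targets, imprinted growth genes, IGF2 mRNA-binding proteins and the growth hormone pathway. Of 102 listed genes, 93 were tested and 0 passed the edgeR test. At an unadjusted p under 0.05 there were 22, 16 with higher and 6 with lower values, against 11.9% of all genes tested. By direction the latter were 813 higher and 737 lower of 13036. For 8 the genotypes did not overlap, near the 8.03% of all genes tested, with 7 higher against 4.06% and 1 lower against 3.97%. The median log2 fold change was 0.12. DESeq2 and limma-voom each called 2, against 2.32% and 0.967% of all genes, so the DESeq2 count was near its background, and *Adamts1* was called by both.

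The release and carrier list held 2 genes of 9 tested whose groups did not overlap, against 8.03% of all genes tested. *Adamts1*, a secreted metalloprotease, was at 192, 216, 244 and 202 CPM in WT libraries and 315, 371, 539 and 349.6 CPM in *Pdgfra-Cre:LmnaF/F* libraries. Its log2 fold change was 0.88 (SE 0.21, adjusted p = 0.0987 with the edgeR quasi-likelihood test, 0.00342 with DESeq2 and 0.0322 with limma-voom). *Pappa*, the IGFBP4 protease, was at 11.5, 25.2, 2.24 and 26.0 CPM in WT libraries and 31.4, 37.9, 56.2 and 44.9 CPM in *Pdgfra-Cre:LmnaF/F* libraries. WT library 3 was far below the rest, and the log2 fold change was 1.42 (SE 0.51, adjusted p = 0.277, edgeR quasi-likelihood test). It was 1.79 with DESeq2 and an RUVr factor (adjusted p = 0.000727) and 2.35 in edgeR with Y-linked expression as covariate (adjusted p = 0.0876). In this list 5 genes had a lower estimate.

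Of the genes related to the binding proteins, *Cyr61* (*Ccn1*), an immediate-early gene of a matricellular protein, was at 138 to 478 CPM in WT and 416 to 1226 CPM in *Pdgfra-Cre:LmnaF/F* libraries, with a log2 fold change of 1.46 (adjusted p = 0.135, edgeR quasi-likelihood test). Its highest value was in library 3, as was that of the dissociation response. *Nov* (*Ccn3*) was at 32.7 to 84.7 CPM in WT and 11.6 to 48.3 CPM in *Pdgfra-Cre:LmnaF/F* libraries, with a log2 fold change of -0.95 (adjusted p = 0.344).

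Among receptors and adaptors, *Irs2*, an insulin receptor substrate, was at 81.0 to 135 CPM in WT and 129 to 329 CPM in *Pdgfra-Cre:LmnaF/F* libraries. *Insr*, the insulin receptor, was at 54.3 to 97.1 CPM and 79.5 to 201 CPM. For both, *Pdgfra-Cre:LmnaF/F* libraries 3 and 4 were the highest, the same pair as for *Igfbp3*. Their log2 fold changes were 0.95 (SE 0.29, adjusted p = 0.192) and 0.92 (SE 0.29, adjusted p = 0.208) with the edgeR quasi-likelihood test. Without that pair they were 0.31 (adjusted p = 0.759) and 0.26 (adjusted p = 0.824). In the PI3K-AKT-mTOR arm, 21 genes were tested and 3 had an unadjusted p under 0.05, near the 11.9% of all genes tested. *Akt1* had a log2 fold change of -0.46, or -0.29 without the same pair, and *Rheb*, the activator of mTORC1, one of 0.49. In the RAS-MAPK arm none of 9 genes had an unadjusted p under 0.05, and *Nras* had the lowest p, with a log2 fold change of 0.31, or 0.19 without WT library 3 and 0.07 with all libraries thinned to the lowest total.

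Of 18 FOXO factors and targets, 5 had an unadjusted p under 0.05, against 11.9% of all genes tested, and 2 did not overlap, *Trib1* higher and *Foxo6* lower, against 8.03%. *Foxo6* is named after its values were seen. *Trib1* had a log2 fold change of 1.22 (adjusted p = 0.171) and no overlap, at 10.1 to 14.6 CPM in WT and 17.7 to 42.7 CPM in *Pdgfra-Cre:LmnaF/F* libraries. *Bcl6*, a transcriptional repressor, was at 80.1 to 122 CPM in WT and at 34.03, 32.7, 100.04 and 40.3 CPM in *Pdgfra-Cre:LmnaF/F* libraries, so library 3 alone was within the WT range. Its log2 fold change was -0.97 (adjusted p = 0.233), and without library 3 it was -1.50 (adjusted p = 0.0281), both with the edgeR quasi-likelihood test.

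Among the 10 imprinted growth genes tested, the growth restrainer *Cdkn1c* was at 15.0 to 46.5 CPM in WT and 48.6 to 84.4 CPM in *Pdgfra-Cre:LmnaF/F* libraries, with a log2 fold change of 1.02 (adjusted p = 0.209, edgeR quasi-likelihood test), or 0.66 without *Pdgfra-Cre:LmnaF/F* libraries 3 and 4 and 0.58 without WT libraries 2 and 3. It passed at 1.06 with DESeq2 and an RUVr factor (adjusted p = 0.00714) and at 1.504 in edgeR with Y-linked expression as covariate (adjusted p = 0.0415). *Mest* was at 23.2 to 38.2 CPM and 42.7 to 69.2 CPM, with a log2 fold change of 0.77 (adjusted p = 0.216). Neither overlapped between genotypes, which makes 2 of the 10, against 8.03% of all genes tested. The list's estimates were 5 higher and 5 lower, and 4 of the 10 had an unadjusted p under 0.05 in the edgeR test, against 11.9% of all genes tested. *Igf2bp2*, which binds *Igf2* mRNA, had a log2 fold change of 1.04 (adjusted p = 0.316), with 57.6 CPM in *Pdgfra-Cre:LmnaF/F* library 2 and 11.7 to 24.4 CPM in the others. Without library 2 the estimate was 0.49 (adjusted p = 0.692).

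Growth hormone induces *Igf1* through its receptor, JAK2 and STAT5. The receptor gene *Ghr* was at 109 to 144 CPM in WT and 153 to 189 CPM in *Pdgfra-Cre:LmnaF/F* libraries, and *Jak2* was at 47.3 to 56.2 CPM and 69.2 to 96.0 CPM. Neither overlapped, which makes 2 of the 6 genes in the list, against 8.03% of all genes tested, and 4 of the 6 had a higher and 2 a lower estimate. Their log2 fold changes were 0.45 (SE 0.18, adjusted p = 0.343) and 0.66 (SE 0.20, adjusted p = 0.194) with the edgeR quasi-likelihood test.

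**Figure D5:**
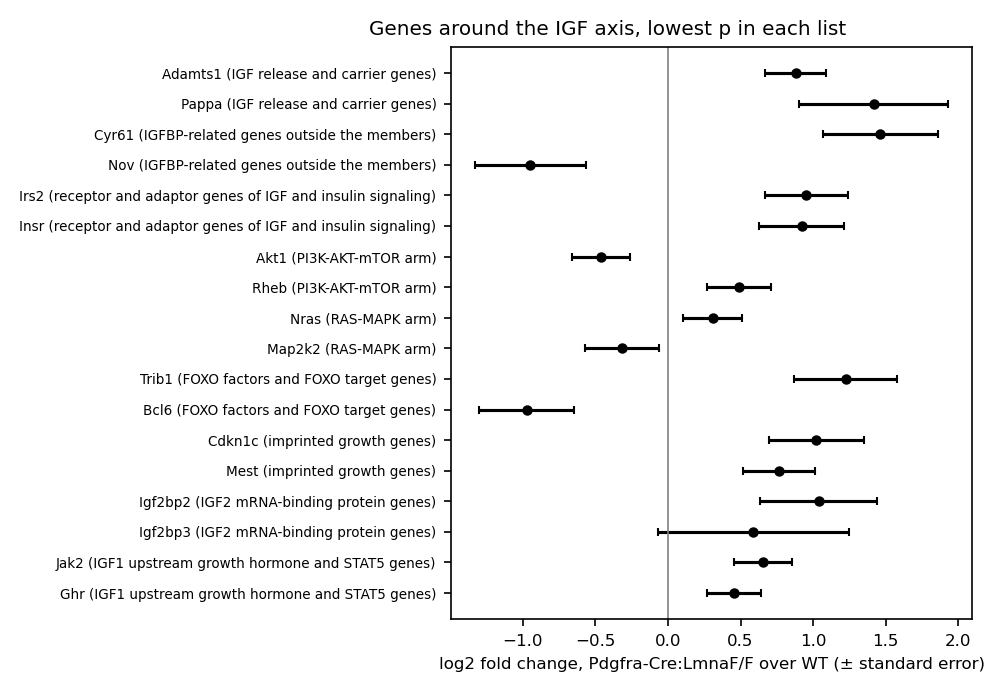
Log2 fold change with standard error (edgeR quasi-likelihood test) of the 2 genes with the lowest p in each list around the IGF axis, *Pdgfra-Cre:LmnaF/F* over WT. *Cyr61* has the highest estimate at 1.46 and *Bcl6* the lowest at -0.97, and none passed an adjusted p under 0.05.

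For the 3 axis genes with the lowest p, the genes of most similar pattern were sought as the smallest mean absolute difference in centred log2 CPM over the 8 libraries. For *Igfbp3* these were *Cbs*, *Acot1* and *Bcar3*, at 0.416, 0.529 and 0.558. The distances were larger than for the other genes, and *Cbs* stood at only 1.87 to 16.3 CPM. For *Igf1* they were *Lrba*, *Cdc42se1* and *Flii*, at 0.0599, 0.0656 and 0.0870. *Flii* was at 207 to 264 CPM in WT and 142 to 167 CPM in *Pdgfra-Cre:LmnaF/F* libraries. That these genes separate the genotypes follows from how they were picked, since *Igf1* itself does so. For *Igfbp5* they were *Nhsl1*, *Shmt2* and *Lrrc20*, at 0.154, 0.169 and 0.179.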

How the data were processed

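PDGFRA+ cells of 8 mice were sequenced as strand-specific, rRNA-depleted libraries (150 bp paired-end, RIN above 8). The authors aligned reads to mm10 with HISAT2 and deposited whole-number featureCounts counts per gene symbol, not scaled to a common total. The methods name RUV normalization, and the values alone do not show whether the deposited counts carry it. Genotypes were taken from the labels. The genotypes were compared with edgeR 4.0.16 in R 4.3.3 (TMM, filterByExpr, quasi-likelihood test, genotype as the only term, Benjamini-Hochberg adjustment over all genes tested), and checked on simulated counts. Alternatives used DESeq2 1.42.0, limma-voom (limma 3.58.1), other factors and filters, RUVr, thinning and left-out libraries. TPM used GENCODE M21 exon lengths. The floor was set at 3 counts, and depth covers counting error only. Named genes are the 10 axis genes, *Lmna*, the 2 genes with the lowest p in each list and the 3 nearest genes of the 3 axis genes with the lowest p. Members and lists were chosen with earlier results of these data known. *Peg10* and *Klf15*, named only under alternatives, were chosen after their values were seen. Replicate numbers do not mark paired animals in the sources used here.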

Additional observations from a re-analysis of the deposited data

Results flagged for a closer look

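Each of 60 groups of 4 values (such as the CPM of a named gene in a genotype) was checked for a library far from the other 3, and 7 were found. Chance gives about 1 in 20 groups for continuous values, a rate that does not apply to *Igfbp2*, where 3 of the 4 values are 0 in each genotype and any count in the fourth stands apart. Nor does it apply to *Igf2* in *Pdgfra-Cre:LmnaF/F* libraries, with raw counts of 0, 2, 53 and 0. *Igf2* stood at 6.10 CPM and *Igfbp2* at 3.68 CPM in *Pdgfra-Cre:LmnaF/F* library 3, both near 0 in the other 3. *Igfbp2* stood at 0.503 CPM in WT library 2, which is a single count in the shallowest library. *Igfbp6* stood at 319 CPM in *Pdgfra-Cre:LmnaF/F* library 4, far above the other 3. *Map2k2*, a kinase of the RAS-MAPK arm, stood at 67.2 CPM in WT library 1, below the other WT libraries. *Bcl6* at 100.04 CPM and *Igf2bp3* at 13.9 CPM stood far above the rest in *Pdgfra-Cre:LmnaF/F* library 3. The causes were not tested.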

How the results depend on the processing

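Against 53 genes of all tested and 0 IGF axis genes passing in the edgeR quasi-likelihood test, the numbers were 303 and 3 with DESeq2, 456 and 3 with DESeq2 and 1 RUVr factor, 274 and 2 with no filter, and 119 and 1 with Y-linked expression as covariate. For all genes alone they were 126 with limma-voom, 81 with 1 RUVr factor in edgeR, 18 without WT libraries 2 and 3 and 24 without *Pdgfra-Cre:LmnaF/F* libraries 3 and 4. Leaving out each library gave 13 to 76 genes, 0 to 1 axis genes (*Igfbp3*) and 0 to 1 genes around the axis. The last, 0 in the edgeR test, numbered 2 with DESeq2 (*Adamts1*, *Irs2*), 2 with limma-voom (*Cyr61*, *Adamts1*), 5 with no filter (*Cyr61*, *Klf15*, *Adamts1*, *Irs2*, *Bcl6*), 8 with DESeq2 and RUVr (*Cyr61*, *Pappa*, *Adamts1*, *Cdkn1c*, *Peg10*, *Irs2*, *Insr*, *Trib1*), 1 without *Pdgfra-Cre:LmnaF/F* libraries 3 and 4 (*Bcl6*) and 2 with the Y-linked covariate (*Klf15*, *Cdkn1c*).

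*Igf1* passed at -0.65 with DESeq2, alone and with RUVr. *Igfbp5* passed at -0.87 with DESeq2, -0.86 with DESeq2 and RUVr, and -0.89 where low counts were kept. *Igfbp3* passed at 2.65 with DESeq2, 2.46 when RUVr was added, 2.61 where low counts were kept and 3.09 with the Y-linked covariate, and lay between 2.08 and 2.99 with 1 library left out. *Map2k2*, at -0.31 in the edgeR test and -0.56 with the Y-linked covariate, reversed to 0.044 without *Pdgfra-Cre:LmnaF/F* libraries 3 and 4. The cause was not tested. Both covariate and paired omission were chosen after the data were seen. Other factors than TMM do not apply to TPM and were not run.

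Same-numbered libraries correlated at -0.0298 to 0.0396 in their deviations from the genotype means, and differently numbered ones at -0.0338 to 0.0379. These values give no sign that the numbers pair the libraries. They cannot exclude it, since centring within each genotype limits such correlations. With the replicate block 36 genes passed, 0 of the axis and 1 around it (*Cyr61*, 1.54, adjusted p = 0.0375, edgeR quasi-likelihood test), and *Igfbp3* was at 1.998.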
